A study of Mus musculus with 38 samples.

Results

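Immediate early genes are the genes that a cell transcribes within minutes of a stimulus from preformed factors, and heat shock genes encode chaperones and co-chaperones, several of them switched on when proteins unfold. The 44 genes described here are members of these 2 classes, chosen by symbol from the 31053 gene symbols of each of 4 RNA sequencing count tables of mouse T cells, and all 44 symbols were found. They comprise 7 AP-1 subunits, 3 EGR zinc finger factors, 3 NR4A orphan nuclear receptors, 7 other immediate early and stress factors, 6 regulators of RNA decay and growth arrest, 6 dual specificity phosphatases, 3 KLF and MYC factors, 6 heat shock genes and 3 surface and signalling genes. In T cells, antigen receptor signals reach these genes through MAP kinases and calcium, AP-1 dimers and EGR and NR4A factors carry the signal to later genes, and the dual specificity phosphatases switch the kinases off again. The RNAs of many immediate early genes are short-lived, and enzymatic digestion of tissue at body temperature is known to raise several of them in isolated cells.

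The in vivo libraries came from 2D2 T cells, which carry a transgenic receptor for a myelin peptide. Naive 2D2+ donor cells were turned into Th17 cells in culture (named Th17Inf in the labels), moved into WT mice to cause experimental autoimmune encephalomyelitis, a model of multiple sclerosis, and sorted at peak disease. The groups were CHD1 conditional knockout (cKO) cells from the central nervous system (CNS, n = 4) and their WT counterparts (n = 3), CHD1 cKO cells from the draining lymph nodes (dLN, n = 4) and their WT counterparts (n = 3), and glucocorticoid receptor (GR) cKO cells from the CNS (n = 4) and their WT counterparts (n = 4). The in vitro groups were IL-23R KO and WT Th17 cells, each kept for 2 days with or without the glucocorticoid dexamethasone (Dex), with n = 4 for each of the 4 combinations. All mice are labelled C57/B6, the recipients of every transferred cell were WT, and the Cre driver of the cKO alleles is not given in the sources used here. Each library was made from 2000 sorted cells. CNS tissue was minced and kept with collagenase D at 37 °C for 20 min before a Percoll gradient, whereas lymph nodes were only dispersed mechanically. Tissue, dissociation and count table therefore cannot be told apart. The labels do not say whether replicates were separate animals or cultures, so p-values measure the spread between these libraries, which may be technical.

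Depth per library was 4911109 to 6262849 counts for CHD1 cells of the CNS, 3148634 to 5158450 for those of the dLN, 6281769 to 9159671 for the GR experiment and 3320586 to 4732419 for the cultures. Between 13.3 and 60.1% of a library fell on repeat and ribosomal RNA features, with the highest shares in the dLN, so levels below are CPM, the remaining counts scaled to 1000000 in each library. A library with 3 counts of a gene was at 0.481 to 1.65 CPM, which is the detection floor used here and covers counting error only. Transcripts of other cells were present. Summed microglia and macrophage markers (15 genes, all counted in every CNS library) were 6454 to 27020 CPM in CNS libraries and 406 to 518 CPM in dLN libraries, where Tmem119, a defining microglial marker, was at 0. CD8 markers (2 genes) were 220 to 1048 CPM in CHD1 cKO dLN libraries, against 24.8 to 40.2 CPM in WT dLN libraries. Summed Th17 markers (6 genes) were 1.90 to 7.17 CPM in WT and 6.39 to 12.15 CPM in cKO dLN libraries. In the CNS they were 16.6 to 38.8 CPM in CHD1 WT, 3.63 to 23.4 CPM in CHD1 cKO, 6.21 to 13.1 CPM in GR WT and 6.03 to 17.25 CPM in GR cKO libraries. Of these markers Il17a was at 0 in both dLN groups, Il23r in the WT dLN and the CHD1 cKO CNS, and Il1r1 in the WT dLN. In vitro, the 4 IL-23R KO libraries with Dex stood apart, with 0.529 to 0.726% mitochondrial counts, against 1.98% or more in the other 12 libraries. Nr3c1, which encodes GR, averaged 8.97 CPM in GR cKO and 22.4 CPM in WT libraries. Il23r was at 1.82 to 3.08 CPM in KO cultures with Dex, against 7.55 to 21.3 CPM in WT cultures with Dex, and at 2.91 to 7.35 CPM in KO controls, against 7.62 to 10.8 CPM in WT controls, without overlap in either condition. Chd1, counted over the whole gene, averaged 6.79 CPM in cKO and 6.83 CPM in WT CNS libraries, and the groups overlapped in both tissues.

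The members are compact genes. In the GENCODE M21 annotation (GRCm38) the median member spans 5211 bases with 4 exons, against 17430 bases and 7 exons for 21751 protein-coding genes of the tables, and 7 of 44 members (15.9%) have 1 exon, against 7.03% of all. The RNA decay motif TATTTAT stands in the annotated 3′ UTR of 23 of 43 members (53.5%), against 26.1% of 20651 protein-coding genes. The members' 3′ UTRs were longer (median 1109 bases, against 848), and these shares are not adjusted for length. Promoter sequences, 250 bases before to 50 after the start of a gene, were taken from RefSeq (GRCm38.p6) and were at hand for 34 of the 44 members. Both strands were searched for 5 motifs, and a match is a description of the letters in that window. An ATF and CREB-type element (TGACNTCA or TGANGTCA) was found in 6 member promoters (17.6%; Btg2, Dusp1, Dusp10, Jun, Klf6 and Ppp1r15a), against 8.97% of 27025 promoters of the same length. Paired heat shock units (GAANNTTC or TTCNNGAA) were found in 7 (20.6%; Dnaja1, Fosl2, Hspa1a, Hspa1b, Hsph1, Jun and Sertad1), against 15.1%. The CArG box of serum response factor was found in 2 (5.88%; Dusp5 and Zfp36), against 1.57%, the AP-1 site TGANTCA in 1 (2.94%; Zfp36l1), against 7.93%, and the TATA box TATAAA in 6 (17.6%), against 14.2%.

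The 6 promoters shown belong to members whose levels are given in full below, and capitals mark ATF and CREB-type elements in Jun, Ppp1r15a and Dusp1, paired heat shock units in Jun, Hspa1a and Hspa1b, and TATA boxes in Fos and Ppp1r15a. They lie at chr4:95052173-95052472 (minus strand), chr12:85473640-85473939 (plus), chr7:45526219-45526518 (minus), chr17:26508423-26508722 (minus), chr17:34972107-34972406 (minus) and chr17:34959189-34959488 (minus), each printed 5′ to 3′ on the strand of its gene.
Jun: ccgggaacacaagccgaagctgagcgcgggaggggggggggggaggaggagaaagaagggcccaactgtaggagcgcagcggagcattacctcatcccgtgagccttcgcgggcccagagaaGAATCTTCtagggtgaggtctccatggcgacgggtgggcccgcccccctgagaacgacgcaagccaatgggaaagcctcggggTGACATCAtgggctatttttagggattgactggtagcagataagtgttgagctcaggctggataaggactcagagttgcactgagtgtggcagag
Fos: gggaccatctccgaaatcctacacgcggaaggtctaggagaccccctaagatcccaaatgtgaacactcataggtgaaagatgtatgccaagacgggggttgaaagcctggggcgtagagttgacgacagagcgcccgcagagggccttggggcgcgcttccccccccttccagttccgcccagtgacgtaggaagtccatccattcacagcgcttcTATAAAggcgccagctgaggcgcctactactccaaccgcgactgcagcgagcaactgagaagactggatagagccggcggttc
Ppp1r15a: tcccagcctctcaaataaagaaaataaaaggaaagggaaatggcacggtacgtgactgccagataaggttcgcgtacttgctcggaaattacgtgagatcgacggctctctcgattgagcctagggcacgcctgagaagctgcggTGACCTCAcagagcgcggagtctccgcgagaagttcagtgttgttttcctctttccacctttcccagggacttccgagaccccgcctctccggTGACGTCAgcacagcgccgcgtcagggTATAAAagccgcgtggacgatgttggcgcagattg
Dusp1: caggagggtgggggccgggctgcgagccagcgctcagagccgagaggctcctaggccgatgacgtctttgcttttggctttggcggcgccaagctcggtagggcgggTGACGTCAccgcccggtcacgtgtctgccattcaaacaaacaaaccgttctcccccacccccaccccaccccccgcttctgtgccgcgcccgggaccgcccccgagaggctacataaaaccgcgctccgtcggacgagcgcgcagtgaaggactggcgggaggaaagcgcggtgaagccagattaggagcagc
Hspa1a: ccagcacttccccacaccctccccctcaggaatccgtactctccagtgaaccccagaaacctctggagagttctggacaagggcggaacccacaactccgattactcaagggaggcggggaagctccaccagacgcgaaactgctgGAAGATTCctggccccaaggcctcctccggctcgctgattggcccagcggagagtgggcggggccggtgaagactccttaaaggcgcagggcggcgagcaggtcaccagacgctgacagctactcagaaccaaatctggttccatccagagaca
Hspa1b: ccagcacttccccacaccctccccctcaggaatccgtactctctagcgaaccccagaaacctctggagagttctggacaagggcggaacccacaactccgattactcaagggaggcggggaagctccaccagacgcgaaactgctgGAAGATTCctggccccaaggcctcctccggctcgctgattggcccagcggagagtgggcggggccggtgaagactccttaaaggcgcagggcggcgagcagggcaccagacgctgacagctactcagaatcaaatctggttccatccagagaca
Hspa1a (chr17:34969190-34972156) and Hspa1b (chr17:34956436-34959238) are single-exon neighbours 9951 bases apart that encode inducible HSP70. Their coding sequences are identical at 1918 of 1929 aligned positions (99.4%) and their promoters at 296 of 300 (98.7%), so the division of reads between them is uncertain.

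The tissue comparison asked how the members differed between CNS and dLN cells of the same genotype. In the CNS, 35 of 42 members tested were higher and 1 was lower than in the dLN for CHD1 cKO cells, and 32 of 42 were higher and 0 lower for WT cells. Across all 11589 genes tested, 24.6% were higher and 22.7% lower for cKO cells (47.3% called), and 11.8% higher and 4.93% lower for WT cells (16.7% called). The median log2 fold change of the members was 2.23 for cKO and 1.97 for WT cells, against -0.02 and -0.01 over all genes tested, and setting the members that were at 0 in the dLN to their lower bounds left both medians at these values. No CNS library overlapped any dLN library, with the CNS higher, for 32 members in cKO cells (17.1% of all genes tested) and 34 in WT cells (16.3%), and, with the CNS lower, for 2 in cKO cells (23.2%) and 0 in WT cells (26.4%). The members' summed level was 8446 to 10660 CPM in cKO CNS and 3780 to 4173 CPM in cKO dLN libraries, and 7885 to 8100 CPM in WT CNS and 3861 to 4241 CPM in WT dLN libraries. Dendritic and antigen presentation markers (6 genes) summed to 5755 to 11730 CPM in cKO CNS and 226 to 489 CPM in cKO dLN libraries. In WT cells they summed to 3693 to 4612 CPM in the CNS and 129 to 589 CPM in the dLN. Erythroid markers (4 genes) summed to 0.821 to 717 CPM in cKO CNS and 0 CPM in WT CNS libraries. In these bulk samples fewer cells of a type and less RNA per cell cannot be told apart. The part of these and of the microglia and macrophage transcripts in the tissue differences was not tested.

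All 6 AP-1 subunits tested were higher in the CNS in both genotypes. Jun, the partner of most FOS dimers, had 117, 163, 119.8 and 104 CPM in cKO CNS libraries, against 0.842, 1.04, 1.37 and 0 CPM in cKO dLN libraries. In WT cells it had 141, 107 and 129.8 CPM in the CNS, against 0.946, 0.551 and 0.948 CPM in the dLN. Every dLN library thus held at most 3 Jun counts, and no CNS library was below 100 CPM. The log2 fold change was 7.32 ± 0.29 for cKO cells (SE; edgeR adjusted p = 6.32e-10) and 7.35 ± 0.34 for WT cells (adjusted p = 1.59e-08). The SE here and below is derived from the F statistic. With so few dLN counts it is smaller than counting error alone, so the size of this fold is less certain than printed. Fos, the classic serum-induced gene, had 305, 309.9, 206 and 157 CPM in cKO CNS and 2.53, 2.07, 3.65 and 6.32 CPM in cKO dLN libraries. In WT cells it had 118, 172 and 179.5 CPM in the CNS and 0, 2.76 and 1.42 CPM in the dLN. Its log2 fold change was 6.17 ± 0.35 for cKO (adjusted p = 1.36e-08) and 7.002 ± 0.48 for WT cells (adjusted p = 2.10e-07), the WT value being 6.39 without WT dLN library 1 and 7.87 without WT dLN library 2. Fosb was near the floor in the dLN, with 225 counts in WT CNS and 1 in WT dLN libraries, a ratio of 108 in CPM (95% exact counting interval 19.2 to 4291). For cKO cells its log2 fold change was 4.87 ± 0.47 (adjusted p = 1.78e-06), over 4 counts in the cKO dLN. Junb differed less but from a high level, at 745, 1010, 876 and 622 CPM in cKO CNS, against 113, 94.3, 90.4 and 79.7 CPM in cKO dLN libraries (log2 fold change 3.23 ± 0.16, adjusted p = 3.10e-09). For WT cells its log2 fold change was 2.92 ± 0.18 (adjusted p = 7.47e-08). Fosl2 (2.66 ± 0.41 for cKO and 3.65 ± 0.54 for WT) and Jund (1.62 ± 0.34 and 1.89 ± 0.40) completed the group, and the Fosl2 value for cKO cells was 3.26 without cKO dLN library 1. Fosl1 did not pass the filter on low counts in these libraries and was at 0 to 1.70 CPM in all 14.

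**Figure D1:**
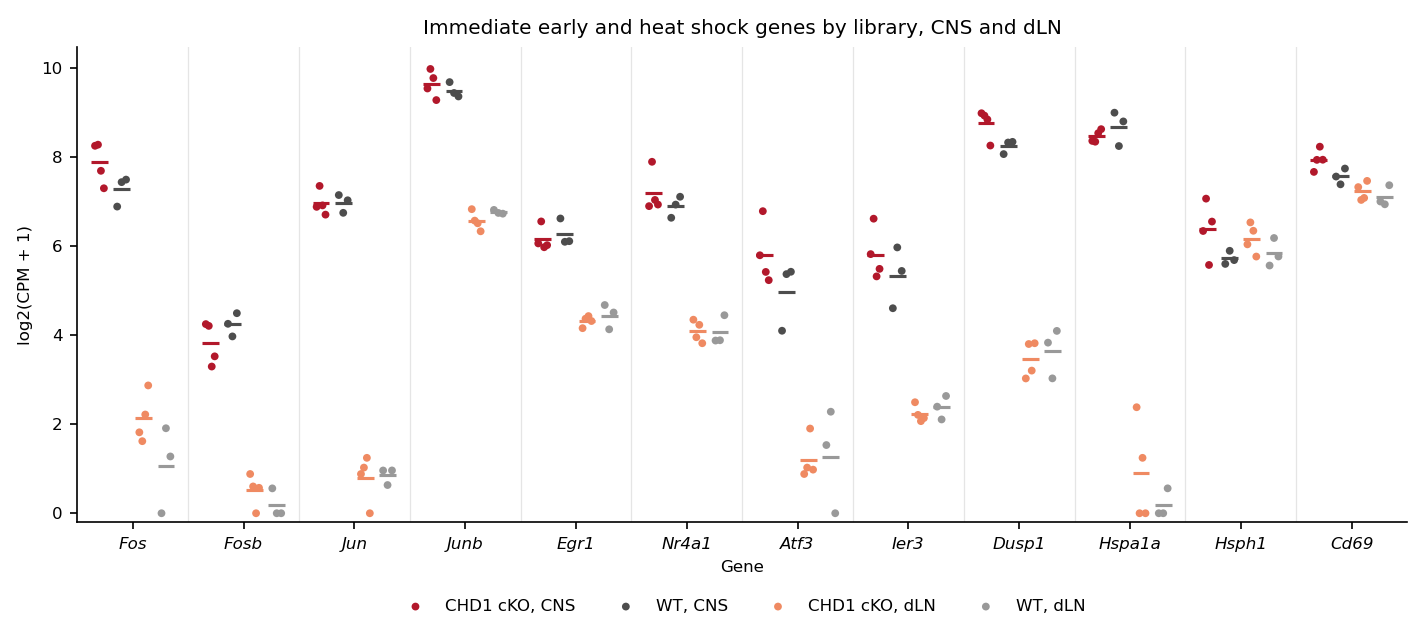
Levels of 12 members as log2(CPM + 1) in each CHD1 library, with points for libraries and bars for means of the log values, in the order cKO CNS, WT CNS, cKO dLN, WT dLN. Fos, Fosb, Jun and Hspa1a lie at 6.32 CPM or less in the dLN and between 8.82 CPM (Fosb) and 511 CPM (Hspa1a) in the CNS, while Hsph1 overlaps between tissues.

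The 3 EGR factors and the 3 NR4A receptors, which are read as signs of recent antigen receptor signalling, were all higher in the CNS in both genotypes. Egr1 had 65.8, 93.1, 62.0 and 64.0 CPM in cKO CNS, against 16.9, 19.7, 20.6 and 18.9 CPM in cKO dLN libraries, and 97.5, 67.5 and 68.2 CPM in WT CNS, against 24.6, 16.5 and 21.8 CPM in WT dLN libraries. The ranges were far apart in each genotype, with log2 fold changes of 2.03 ± 0.17 for cKO (adjusted p = 5.44e-07) and 2.05 ± 0.20 for WT cells (adjusted p = 5.52e-06). Egr2 followed with 1.70 ± 0.34 and 2.37 ± 0.39, and Egr3 with 1.18 ± 0.37 and 1.34 ± 0.41. The Egr3 call for WT cells was lost without WT CNS library 1, 2 or 3 or WT dLN library 2 or 3 (adjusted p = 0.0594 to 0.134), and that for cKO cells without cKO dLN library 1 (0.0527). Nr4a1, which encodes NUR77, had 118, 237, 130.5 and 121 CPM in cKO CNS, against 19.4, 14.5, 17.8 and 13.1 CPM in cKO dLN libraries (log2 fold change 3.33 ± 0.24, adjusted p = 1.03e-07). WT CNS libraries had 98.6, 121 and 137 CPM, against 13.7, 13.8 and 20.8 CPM in WT dLN libraries (3.04 ± 0.28, adjusted p = 2.96e-06). The 237 CPM of cKO CNS library 2 stood above the other 3 libraries of its group. Nr4a3 had log2 fold changes of 3.04 ± 0.46 and 2.87 ± 0.54, and Nr4a2, at 0 to 2.95 CPM in the dLN, 3.34 ± 0.56 and 4.43 ± 0.72. Without cKO dLN library 1 the Nr4a2 value for cKO cells was 4.54, and without WT dLN library 1 that for WT cells was 5.67.

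Among the other immediate early and stress factors, 6 of 7 were higher in the CNS for cKO and 5 of 7 for WT cells. Ppp1r15a, whose product GADD34 reverses the stress block on translation, had 135, 228, 176 and 136 CPM in cKO CNS, against 17.7, 16.1, 15.5 and 14.6 CPM in cKO dLN libraries. WT CNS libraries had 148, 121 and 146 CPM, against 10.4, 8.82 and 9.95 CPM in WT dLN libraries. The smallest CNS value was over 6 times the highest dLN value, and the log2 fold changes were 3.52 ± 0.17 for cKO (adjusted p = 3.10e-09) and 3.99 ± 0.21 for WT cells (adjusted p = 3.34e-08). Atf3, a stress-induced repressor, had 54.6, 109, 41.9 and 36.7 CPM in cKO CNS, against 0.842, 1.04, 2.74 and 0.972 CPM in cKO dLN libraries, and 16.1, 40.4 and 42.0 CPM in WT CNS, against 1.89, 3.86 and 0 CPM in WT dLN libraries. The spread within the CNS was wide, and the log2 fold changes were 5.49 ± 0.57 and 4.30 ± 0.66 for cKO and WT cells, the WT value being 5.22 without WT dLN library 2 and 3.71 without WT dLN library 3. Ier3 differed by 4.07 ± 0.37 and 3.46 ± 0.42 on the log2 scale. Csrnp1 (1.01 ± 0.33 and 1.51 ± 0.41, its cKO groups overlapping) and Ier2 (0.54 ± 0.13 and 0.47 ± 0.14) differed less. The Csrnp1 call was lost for cKO cells without cKO CNS library 2 or cKO dLN library 1 or 4 (0.0576 to 0.0829), and for WT cells without WT CNS library 3 or WT dLN library 1 or 2 (0.0611 to 0.0851). The Ier2 call for WT cells was lost without any 1 of the 6 WT libraries (0.0520 to 0.150). Sertad1 passed for cKO cells (0.50 ± 0.18, adjusted p = 0.0349) although its groups overlapped, a call lost without cKO CNS library 2 or any 1 cKO dLN library (0.0508 to 0.119), and in WT cells its value was 0.58 ± 0.21 (adjusted p = 0.0782). Ier5 did not pass in either genotype (0.55 ± 0.33 and 0.56 ± 0.39).

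The genes of RNA decay and growth arrest were split. Zfp36, which encodes tristetraprolin and is itself an immediate early gene, had 129.9, 139, 97.7 and 85.8 CPM in cKO CNS, against 24.4, 20.7, 19.6 and 16.5 CPM in cKO dLN libraries (log2 fold change 2.59 ± 0.17, adjusted p = 4.11e-08). In WT cells it had 77.2, 75.8 and 62.1 CPM in CNS libraries, against 12.8, 10.5 and 13.3 CPM in WT dLN libraries (2.72 ± 0.21, adjusted p = 6.99e-07). Its paralogues, which encode proteins that bind the same AU-rich RNA elements, did not pass: Zfp36l1 had log2 fold changes of 0.01 ± 0.23 for cKO and 0.35 ± 0.27 for WT cells, and Zfp36l2 -0.15 ± 0.15 and -0.12 ± 0.18, with a positive cKO value for Zfp36l2 (0.47) when libraries were scaled to total counts. Zfp36l1 passed for WT cells without WT dLN library 3 (0.0402). Gadd45b, a stress and growth arrest gene, was higher in both genotypes (3.32 ± 0.23 and 3.25 ± 0.27). Btg2, an antiproliferative gene, passed for cKO cells (0.83 ± 0.20, adjusted p = 0.00330), with 167, 139, 152 and 119.5 CPM in the CNS, against 118, 80.3, 80.4 and 76.8 CPM in the dLN. Without cKO dLN libraries 2 and 3, those with the most CD8 transcripts, its adjusted p was 0.0595. For WT cells its value was 0.57 ± 0.23 (adjusted p = 0.107). Gadd45a was too low to test.

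Of the 6 dual specificity phosphatases, which dephosphorylate MAP kinases, 5 were higher in the CNS and 1 lower for cKO cells, and 4 were higher for WT cells. Dusp1 had 506, 488, 459 and 306 CPM in cKO CNS, against 7.16, 12.9, 8.22 and 13.1 CPM in cKO dLN libraries. WT CNS libraries had 268, 321 and 324 CPM, against 13.2, 7.17 and 16.1 CPM in WT dLN libraries. Every CNS library was above 200 CPM and every dLN library below 20 CPM, with log2 fold changes of 5.55 ± 0.24 for cKO (adjusted p = 1.49e-09) and 4.79 ± 0.27 for WT cells (adjusted p = 5.12e-08). Dusp5 and Dusp6, which act on ERK, had log2 fold changes of 2.40 ± 0.24 and 1.58 ± 0.15 for cKO and 1.62 ± 0.26 and 1.29 ± 0.18 for WT cells. Dusp4 had 2.98 ± 0.52 and 1.85 ± 0.48, the WT call being lost without WT CNS library 2 or WT dLN library 2 or 3 (0.0510 to 0.0606). Dusp2 passed for cKO cells (0.73 ± 0.27, adjusted p = 0.0359) with overlapping groups, a call lost without cKO CNS library 1, 3 or 4 or cKO dLN library 1, 2 or 3 (0.0514 to 0.117), and for WT cells its value was 0.69 ± 0.31 (adjusted p = 0.150). Dusp10, which acts on JNK and p38, was the 1 member lower in the cKO CNS, at 21.8, 23.6, 23.4 and 23.5 CPM, against 48.0, 29.5, 33.3 and 30.1 CPM in the cKO dLN (log2 fold change -0.48 ± 0.16, adjusted p = 0.0249), but its value was 0.12 with total-count scaling and the call was lost without cKO CNS library 1 (0.0589) or cKO dLN library 1 (0.114). For WT cells Dusp10 had 0.20 ± 0.19 (adjusted p = 0.547). Of 9 other dual specificity phosphatase genes tested, 3 were higher for cKO and 1 for WT cells, Dusp3 in each (2.55 ± 0.37 and 2.37 ± 0.42).

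Of the KLF and MYC factors, Klf6 was higher in the CNS (2.06 ± 0.15 for cKO, adjusted p = 1.27e-07, and 1.67 ± 0.17 for WT cells, adjusted p = 1.18e-05), at 188, 233, 202 and 205 CPM in cKO CNS, against 56.9, 37.8, 63.0 and 58.3 CPM in cKO dLN libraries. Klf4 had no count in any dLN library and 2.10 to 4.25 CPM in cKO and 1.75 to 3.21 CPM in WT CNS libraries, at least 9.23-fold higher for cKO and at least 4.97-fold higher for WT cells against a floor of 3 counts over the group. Myc, which drives growth, overlapped between tissues, with 106, 286, 100.1 and 122 CPM in cKO CNS, against 134, 125, 123 and 128 CPM in cKO dLN libraries (log2 fold change 0.37 ± 0.27, adjusted p = 0.278), and a WT value of 0.31 ± 0.32.

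The heat shock genes divided by kind. Inducible HSP70 was almost absent from the dLN. Hspa1a and Hspa1b together had 353, 345, 383 and 414 CPM in cKO CNS, against 4.63, 0, 1.83 and 0 CPM in cKO dLN libraries. WT CNS libraries had 554, 329 and 475 CPM, against 0, 0 and 0.474 CPM in WT dLN libraries. The 3 WT dLN libraries held 1 Hspa1a count in all, against 5276 in the WT CNS, a ratio of 2537 in CPM (95% exact counting interval 455 to 100200). Hspa1b was at least 66.2-fold higher in the WT CNS against a floor of 3 counts over the group, and 341 cKO CNS counts against 2 cKO dLN counts gave a ratio of 80.1 (22.0 to 664). For cKO cells the fitted log2 fold change of Hspa1a was 7.98 ± 0.44 (adjusted p = 8.00e-09), and 9.55 without cKO dLN library 1. The constitutive HSC70 gene Hspa8, the highest member per 1000 bases of exon in each of these 4 groups, was higher in the CNS by 0.74 ± 0.10 for cKO and 0.52 ± 0.11 for WT cells on the log2 scale (adjusted p = 2.96e-05 and 0.00450). The HSP40 gene Dnajb1, a target of heat shock factor, was higher by 0.87 ± 0.17 and 1.32 ± 0.21. Hsph1 (HSP110) and the HSP40 gene Dnaja1 did not pass in either genotype. Hsph1 had 80.1, 133, 46.8 and 92.9 CPM in cKO CNS, against 64.9, 91.7, 80.4 and 53.5 CPM in cKO dLN libraries (0.40 ± 0.24, adjusted p = 0.185), and it passed without cKO CNS library 3 (0.0301). Dnaja1 had a log2 fold change of 0.17 ± 0.16 for cKO cells. The WT values were 0.04 ± 0.28 and 0.26 ± 0.18. Of 25 other heat shock genes tested, 17 were higher and 0 lower for cKO cells, and 5 and 0 for WT cells, among them the co-chaperone gene Bag3 (1.51 ± 0.21 and 0.91 ± 0.23).

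Of the surface and signalling members, Rgs1, a brake on chemokine receptor signalling and a marker of tissue-resident T cells, had 609.9, 461, 778 and 694 CPM in cKO CNS, against 60.6, 28.5, 35.2 and 42.8 CPM in cKO dLN libraries. The WT libraries had 625, 528 and 472 CPM in the CNS, against 49.2, 67.3 and 49.7 CPM in WT dLN libraries. The groups were over 5-fold apart at their nearest libraries, with log2 fold changes of 4.06 ± 0.26 (adjusted p = 3.39e-08) and 3.46 ± 0.29 (adjusted p = 1.53e-06). Rgs2 had 2.55 ± 0.30 and 2.62 ± 0.36. Cd69, an early activation antigen that holds T cells in tissue, differed far less, with 202, 244, 300.4 and 245 CPM in cKO CNS, against 159.6, 130.5, 135 and 176 CPM in cKO dLN libraries (0.87 ± 0.16, adjusted p = 6.63e-04). Its WT value was 0.62 ± 0.19 (adjusted p = 0.0360), a call lost without WT CNS library 1 or 3 or WT dLN library 1 or 2 (0.0834 to 0.132).

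**Figure D2:**
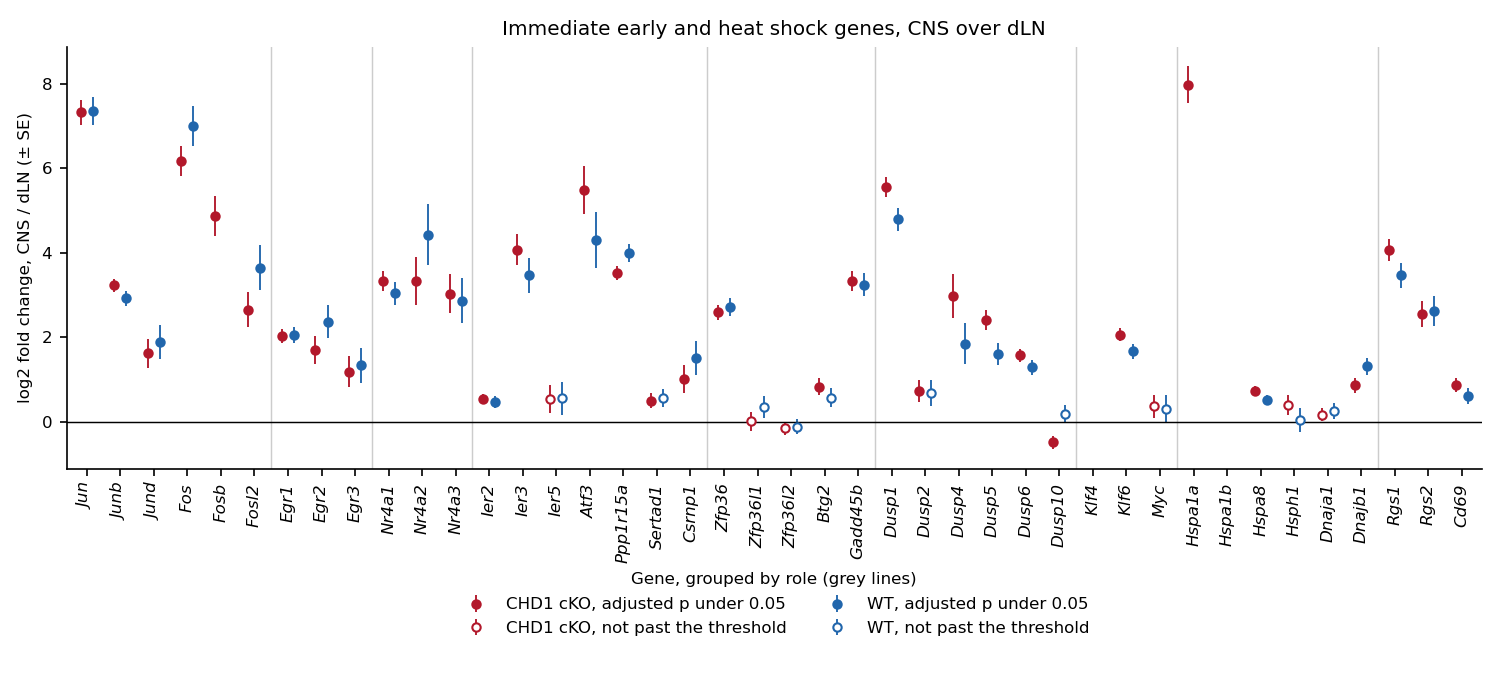
Log2 fold changes of the 42 members tested, CNS over dLN, for CHD1 cKO (red, left) and WT cells (blue, right), with SE bars, filled where edgeR's adjusted p was under 0.05. Klf4 and Hspa1b are not drawn in either genotype and Hspa1a and Fosb not for WT cells, since 3 or fewer dLN counts give a bound or a wide interval only. Jun and Fos lie above 6 in both genotypes, and Hsph1, Dnaja1, Zfp36l1, Zfp36l2, Ier5 and Myc are open in both.

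Genes of these pathways that are not members were counted in the same fit. Of 30 other immediate early genes tested, 21 were higher and 2 lower in the CNS for cKO cells, and 19 and 1 for WT cells, with Plk2, a polo-like kinase gene, at 3.72 ± 0.47 and 4.26 ± 0.65 and Nfil3 at 2.69 ± 0.34 and 2.73 ± 0.41 on the log2 scale. The upstream regulators (kinases and factors that act on the members' promoters) were mixed, with 6 of 28 higher and 10 lower for cKO cells, and 5 and 2 for WT cells. Map2k3, a kinase of p38, was higher (1.53 ± 0.14 and 0.88 ± 0.16) and Elk4, a serum response factor partner, lower (-1.58 ± 0.16 and -0.72 ± 0.18). Scaling to total counts, repeat and ribosomal RNA counts included, in place of TMM moved the median gene by 0.62 for cKO and 0.37 for WT cells. It gave 41 members higher and 0 lower for cKO and 35 and 0 for WT cells. Over all genes 6214 were called for cKO and 2658 for WT cells, 90.4% and 95.1% of them higher. Hsph1, Dnaja1, Ier5, Myc, Zfp36l1 and Zfp36l2 were among the 41. Without cKO dLN libraries 2 and 3 the members called for cKO cells numbered 33, Sertad1 (0.0885), Btg2 (0.0595) and Dusp2 (0.166) being lost, and 34 without cKO CNS library 2, where 25 of 37 members had the highest value of their group. The genotype by tissue term asks whether the tissue difference itself differed between cKO and WT cells. It was passed by 0 of 42 members (13 of 11589 genes, 0.112%). At an unadjusted p under 0.05 there were 2 members, against 18.9% of all genes. DESeq2 called 586 genes for this term, 0 of them members.

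The CHD1 comparison asked whether loss of this chromatin remodeller changed the members within a tissue. None of 42 members tested passed in the CNS (1 of 11157 genes, 0.00896%) and none of 28 in the dLN (7 of 9803 genes, 0.0714%). At an unadjusted p under 0.05 there were 9 members in the CNS, against 11.9% of all genes, and 4 in the dLN, against 20.1%. DESeq2 called 178 genes in the CNS, with 2 members among them, Zfp36 and Klf6, and 385 genes in the dLN, with 0 members. Zfp36 had 129.9, 139, 97.7 and 85.8 CPM in cKO CNS, against 77.2, 75.8 and 62.1 CPM in WT CNS libraries. Its edgeR log2 fold change was 0.62 ± 0.17 (adjusted p = 0.253, DESeq2 adjusted p = 0.0394). In the dLN it had 24.4, 20.7, 19.6 and 16.5 CPM in cKO, against 12.8, 10.5 and 13.3 CPM in WT libraries (0.74 ± 0.21, edgeR adjusted p = 0.118). It passed without cKO dLN library 4 (0.0407), as did Dnaja1 (0.0208), in a fit that called 990 genes. Library 4 had the fewest CD8 transcripts of the cKO dLN libraries (220 CPM). Klf6 had 188, 233, 202 and 205 CPM in cKO CNS, against 145, 152 and 151 CPM in WT CNS libraries (0.44 ± 0.12, edgeR adjusted p = 0.251, DESeq2 adjusted p = 0.0247). Of the 42 members in the CNS, 25 had log2 fold changes above 0 and 17 below. Among the lower ones were Hspa1b (-0.81, edgeR adjusted p = 0.273) and Dusp10 (-0.35, edgeR adjusted p = 0.406). Markers moved beside these values: dendritic and antigen presentation markers summed to 5755 to 11730 CPM in cKO CNS, against 3693 to 4612 CPM in WT CNS libraries, and B cell markers to 128 to 625 CPM, against 55.8 to 91.9 CPM. Microglia and macrophage markers summed to 7970 to 16230 CPM in cKO CNS, against 7684 to 9806 CPM in WT CNS libraries, with all 15 log2 fold changes positive (median 0.58, 9 at an unadjusted p under 0.05 and 0 after adjustment by edgeR). T cell markers summed to 23400 to 48850 CPM, against 40880 to 51360 CPM, with all 9 values negative (median -0.25). CD8 markers were higher in the cKO dLN as given above. T cell markers summed to 14550 to 31810 CPM in cKO dLN, against 38530 to 42660 CPM in WT dLN libraries. Most of that sum was Trbc2, at 8000 to 22700 CPM in cKO, against 30600 to 33030 CPM in WT dLN libraries. Of the 9 T cell genes, 6 had positive and 3 negative log2 fold changes in the dLN. Their part in the member values was not tested. None of the 31 other immediate early, 25 other heat shock, 28 upstream and 9 other phosphatase genes tested in the CNS passed.

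The GR comparison asked what loss of the glucocorticoid receptor did to the members in CNS cells. None of 42 members passed edgeR's threshold, nor did any of 11148 genes (0%), while 8 members and 11.0% of all genes had an unadjusted p under 0.05. DESeq2 called 122 genes, and 5 of them were members, all lower in GR cKO cells. Dusp2, a nuclear phosphatase of ERK and p38, had 127, 122, 163 and 122 CPM in GR cKO, against 246, 255, 458 and 235 CPM in WT libraries. The groups did not overlap, and WT library 3 stood far above the rest of its group (log2 fold change -1.13 ± 0.22, edgeR adjusted p = 0.157, DESeq2 adjusted p = 2.11e-04). Zfp36l2 had 19.2, 14.9, 22.8 and 14.9 CPM in GR cKO, against 35.4, 32.8, 44.2 and 30.9 CPM in WT libraries (-0.96 ± 0.18, edgeR 0.157, DESeq2 0.00184). Cd69 had 149, 241, 202 and 244 CPM in GR cKO, against 371, 306, 342 and 414 CPM in WT libraries (-0.75 ± 0.16, edgeR 0.177, DESeq2 0.00443). Neither gene overlapped between groups. Hsph1 had 35.5, 51.1, 28.1 and 45.2 CPM in GR cKO, against 85.3, 102, 54.1 and 79.2 CPM in WT libraries (-0.98 ± 0.22, edgeR 0.199, DESeq2 0.00737). Dnaja1 had 224, 293, 229 and 277 CPM in GR cKO, against 514, 488, 290.2 and 404 CPM in WT libraries (-0.70 ± 0.18, edgeR 0.257, DESeq2 0.0242), and here GR cKO library 6 lay just above WT library 3.

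Groups did not overlap, with GR cKO lower, for 5 members (4.81% of all genes), the fifth being Nr4a1 at 150.2 to 198 CPM in GR cKO, against 202 to 231 CPM in WT libraries (-0.27 ± 0.10, edgeR adjusted p = 0.361), and for 0 with GR cKO higher (2.22%). All 6 heat shock members had a fitted value below 0, from -0.18 ± 0.11 (Hspa8) to -0.98 ± 0.22 (Hsph1), with none past edgeR's threshold and 3 at an unadjusted p under 0.05. The median over all members was -0.06, against -0.0025 over all genes. Dusp1, a known glucocorticoid target, had 607, 470, 629.9 and 485 CPM in GR cKO, against 459, 849, 724 and 556 CPM in WT libraries (-0.20 ± 0.18, adjusted p = 0.734). The AP-1 genes overlapped throughout. Fos had 383, 250.5, 362 and 274 CPM in GR cKO, against 159.6, 489.6, 288 and 249 CPM in WT libraries (0.14 ± 0.29), and Jun 155, 129, 195 and 164 CPM, against 101, 342, 131 and 98.2 CPM (-0.03 ± 0.36). WT library 2 held the highest value of its group for 22 of 39 members and also the most microglia and macrophage transcripts (27020 CPM), and WT library 1 the fewest (6454 CPM), with Ier3 at 11.1, 64.2, 41.0 and 58.0 CPM over WT libraries 1 to 4. Leaving out any 1 library called no member. Microglia and macrophage markers summed to 13750 to 26450 CPM in GR cKO, against 6454 to 27020 CPM in WT libraries. Dendritic and antigen presentation markers summed to 7429 to 11710 CPM, against 3380 to 8276 CPM. B cell markers summed to 160 to 1530 CPM in GR cKO, against 87.9 to 157 CPM in WT libraries, and T cell markers to 26650 to 36590 CPM, against 34360 to 47150 CPM. The part of all these transcripts in the member values was not tested. None of 31 other immediate early or 25 other heat shock genes passed.

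**Figure D3:**
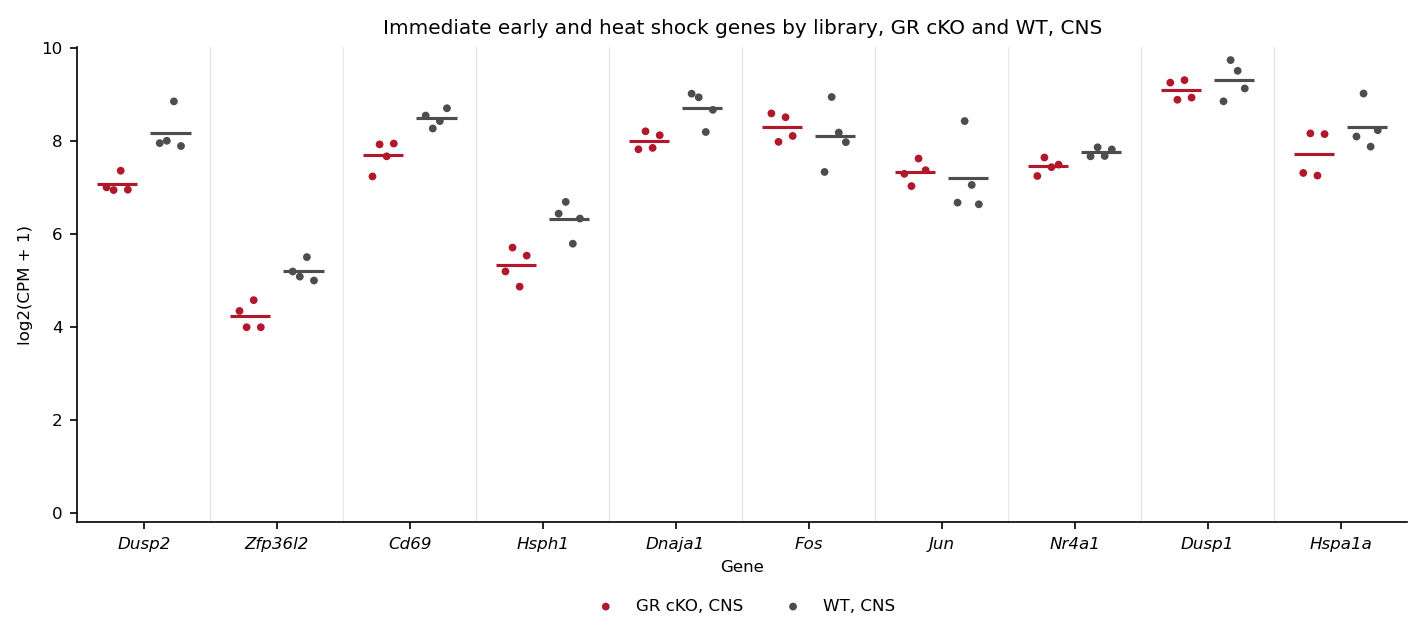
Levels of 10 members as log2(CPM + 1) in GR cKO (red, left) and WT (grey, right) CNS libraries, points being libraries and bars means of the log values. Dusp2, Zfp36l2, Cd69, Hsph1 and Nr4a1 do not overlap between groups, while Fos, Jun, Dusp1 and Hspa1a do.

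The cultures asked how Dex changed the members in IL-23R KO and in WT cells. In KO cells 17 of 39 members tested rose and 13 fell, where 27.3% of 10813 genes rose and 27.4% fell (54.7% called). In WT cells 1 rose and 7 fell, where 3.88% of genes rose and 4.20% fell (8.08% called). Member medians were 0.06 for KO and -0.11 for WT cells on the log2 scale, against 0.01 for each over all genes. The 4 KO libraries with Dex had 31.4 to 38.4% repeat and ribosomal RNA counts and the low mitochondrial share given above, and dendritic and antigen presentation markers (6 genes) at 1099 to 1272 CPM, against 282 to 518 CPM in the other 12 libraries. H2-Ab1 made up 1005 to 1183 CPM of that sum, whereas H2-Aa was at 0.697 to 1.91 CPM with Dex, against 4.67 to 7.29 CPM in KO controls, and Itgax, a dendritic cell marker, was at 0 in all 4. T cell markers (9 genes, 1 higher and 6 lower with Dex) summed to 3305 to 3651 CPM in these 4 libraries, against 4342 to 5139 CPM in the other 12, and Th17 markers (6 genes, 5 tested, 3 lower) to 11.5 to 18.5 CPM, against 27.7 to 594 CPM. These values cannot be told apart from the group. Scaling to total counts moved the median gene by -0.47 for KO and -0.11 for WT cells and gave 14 members higher and 17 lower for KO, and 1 and 9 for WT cells. Over all genes this scaling called 6603 for KO and 926 for WT cells, 20.6% and 26.1% of them higher. Egr1, Btg2 and Rgs1 lost their KO calls under it (adjusted p = 0.306, 0.739 and 0.734). Changes below are relative to the median gene.

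Of the 6 phosphatases 1 rose and 4 fell in KO cells, and 2 fell in WT cells. Dusp1 had 94.3, 108, 83.0 and 115 CPM in KO cells with Dex, against 25.2, 22.3, 26.2 and 18.1 CPM in KO controls. WT cells with Dex had 34.1, 27.5, 35.4 and 36.8 CPM, against 24.8, 22.1, 31.0 and 20.3 CPM in WT controls. It rose in KO cells without overlap (log2 fold change 2.29 ± 0.16, edgeR adjusted p = 4.57e-09), and its WT value, 0.47 ± 0.16 (adjusted p = 0.0811), passed without WT control library 3 (0.0358) or WT Dex library 2 (0.0457). Dusp2 did not pass in either genotype (-0.14 ± 0.16 and 0.19 ± 0.16). Dusp4 had 18.9, 22.0, 20.6 and 20.7 CPM in KO cells with Dex, against 51.4, 48.7, 46.6 and 49.0 CPM in KO controls, and fell in KO (-1.10 ± 0.11, adjusted p = 4.76e-07) and WT cells (-0.86 ± 0.12, adjusted p = 2.11e-04). Dusp5 also fell in both (-0.61 ± 0.12 in KO and -0.95 ± 0.12 in WT cells, adjusted p = 3.68e-04 and 1.20e-04). Dusp6 (-0.74 ± 0.20) and Dusp10 (-0.68 ± 0.17) fell in KO cells, and in WT cells had -0.09 ± 0.17 and -0.51 ± 0.16, Dusp10 passing there without WT control library 3 (0.0472).

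Of the immediate early and stress factors 4 rose and 1 fell in KO cells. Ier3, an immediate early survival gene, had 534, 556, 524 and 539.6 CPM in KO cells with Dex, against 163, 119, 152 and 125 CPM in KO controls. In WT cells it had 133, 145, 149 and 157 CPM with Dex, against 163, 137, 169 and 179 CPM without. The KO groups were over 3-fold apart (2.10 ± 0.11, adjusted p = 2.61e-10) and the WT groups overlapped (-0.12 ± 0.11, adjusted p = 0.548). Sertad1, a cell cycle and transcription cofactor, had 285, 286, 277 and 293 CPM in KO cells with Dex, against 90.0, 82.2, 96.5 and 77.8 CPM in KO controls (1.87 ± 0.08, adjusted p = 3.71e-11), and a WT value of -0.01 ± 0.08. Ppp1r15a rose in KO cells by 2.06 ± 0.13 (adjusted p = 1.27e-09), at 85.0 ± 7.51 CPM with Dex, against 22.7 ± 4.32 CPM without (SD, n = 4 each), and Csrnp1 by 1.06 ± 0.13. Atf3 fell in KO cells (-0.78 ± 0.10, adjusted p = 5.49e-06), and in WT cells its value was -0.32 ± 0.10 (edgeR adjusted p = 0.0569, DESeq2 0.0337), without overlap in either genotype.

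**Figure D4:**
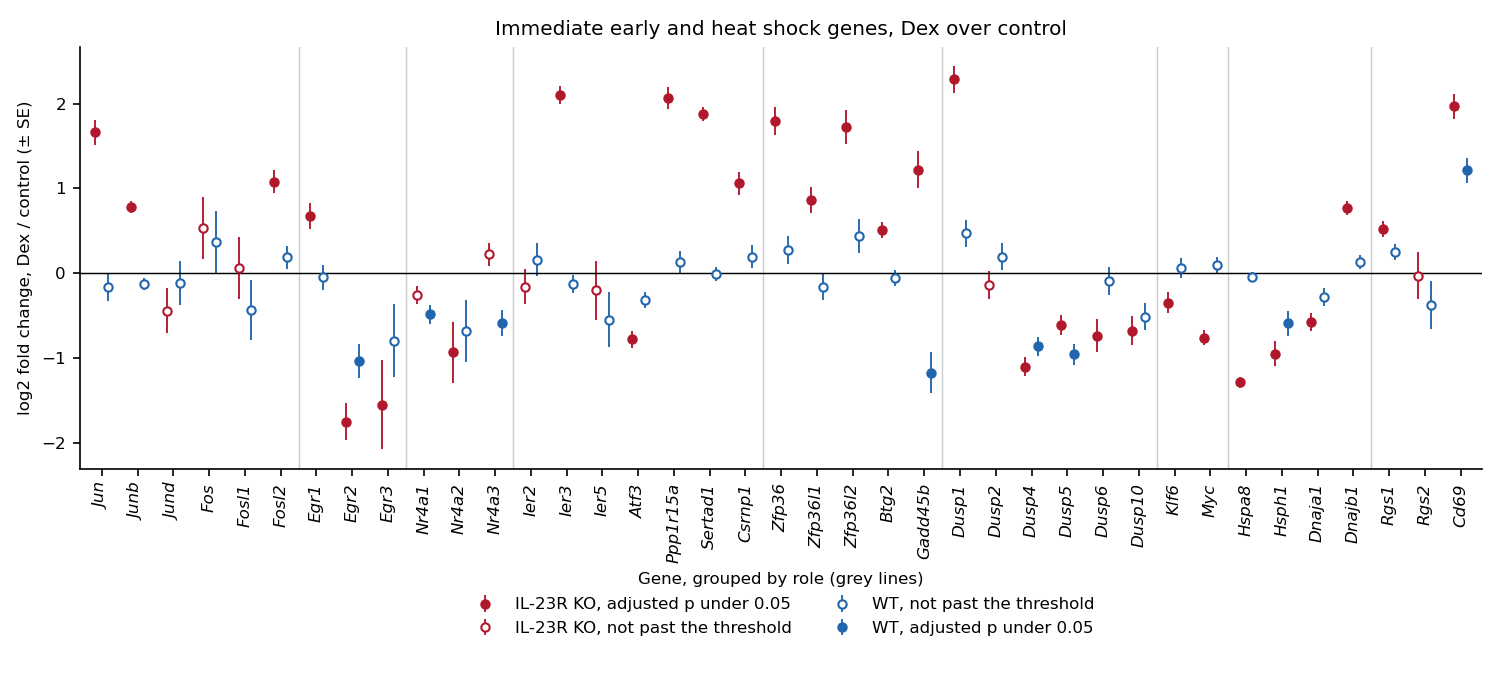
Log2 fold changes of the 39 members tested, Dex over control, for IL-23R KO (red, left) and WT cells (blue, right), with SE bars, filled where edgeR's adjusted p was under 0.05. Ier3, Ppp1r15a, Sertad1 and Dusp1 lie above 1.8 in KO cells and between -0.12 and 0.47 in WT cells, and Gadd45b lies on opposite sides of 0.

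All 5 genes of RNA decay and growth arrest tested rose with Dex in KO cells. Zfp36 had 36.0, 27.7, 32.4 and 33.4 CPM with Dex, against 13.4, 7.89, 11.7 and 8.91 CPM in KO controls (1.80 ± 0.16, adjusted p = 1.14e-07), and Zfp36l2 (1.73 ± 0.20), Zfp36l1 (0.86 ± 0.15) and Btg2 (0.51 ± 0.09) moved the same way. WT values of these 4 were 0.27 ± 0.16, 0.44 ± 0.20, -0.16 ± 0.16 and -0.05 ± 0.09, with none past the threshold. Gadd45b had 54.2, 65.4, 63.5 and 79.8 CPM in KO cells with Dex, against 37.4, 28.3, 31.0 and 29.1 CPM in KO controls, and 20.7, 10.1, 14.2 and 6.57 CPM in WT cells with Dex, against 32.3, 28.4, 35.2 and 22.3 CPM in WT controls. It was thus the 1 member called in opposite directions, 1.22 ± 0.22 in KO (adjusted p = 1.53e-04) and -1.17 ± 0.25 in WT cells (adjusted p = 0.00614).

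Of 6 AP-1 genes tested, Jun, Junb and Fosl2 rose in KO cells and none passed in WT cells. Jund passed, lower, in KO cells without KO Dex library 8 (0.0431). Jun had 30.9, 29.9, 36.3 and 34.7 CPM in KO cells with Dex, against 14.3, 11.7, 10.6 and 9.69 CPM in KO controls (1.66 ± 0.15, adjusted p = 7.81e-08), and 8.11, 9.17, 11.6 and 9.99 CPM in WT cells with Dex, against 9.97, 11.3, 11.1 and 11.9 CPM in WT controls (-0.16 ± 0.16). Junb rose by 0.78 ± 0.07 and Fosl2 by 1.08 ± 0.13 in KO cells. Fos was at 2.86 to 11.4 CPM with Dex, against 2.55 to 7.78 CPM without in KO cells, and Fosb held 5 counts in all with Dex and 2 without. Of the 3 EGR genes 1 rose and 2 fell in KO cells and 1 fell in WT cells, and of the 3 NR4A genes 1 fell in KO and 2 fell in WT cells. Egr2 had 15.3, 11.9, 18.8 and 10.8 CPM in KO cells with Dex, against 49.8, 59.6, 61.2 and 43.0 CPM in KO controls, and 15.9, 23.7, 29.3 and 34.2 CPM in WT cells with Dex, against 57.9, 61.1, 45.3 and 51.1 CPM in WT controls. It fell in both (-1.75 ± 0.22, adjusted p = 4.56e-06, in KO and -1.03 ± 0.20, adjusted p = 0.00356, in WT cells). Egr3 fell in KO cells (-1.55 ± 0.53), where KO Dex library 5, at 4.73 CPM, overlapped the controls. Without that library the value was -2.78, and without KO control library 6 or KO Dex library 7 or 8 the call was lost (0.0510 to 0.0669). Egr1 rose in KO cells (0.68 ± 0.15, adjusted p = 0.00130) with overlapping groups. Nr4a1 fell in WT cells (-0.49 ± 0.11, adjusted p = 0.0102) and had -0.26 ± 0.11 in KO cells (adjusted p = 0.0529, 0.0471 by DESeq2 and 0.0222 without KO control library 7). Nr4a3 fell in WT cells (-0.59 ± 0.15, adjusted p = 0.0239), a call lost without WT control library 2 or 4 or WT Dex library 1 or 2 (0.0629 to 0.0939) or when WT libraries were fitted alone (0.0503), and had 0.22 ± 0.14 in KO cells. Nr4a2 fell in KO cells (-0.93 ± 0.36, adjusted p = 0.0382) with overlapping groups, a call lost without KO control library 5 or 6 or KO Dex library 5, 7 or 8 (0.0673 to 0.153).

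Heat shock, MYC and surface genes completed the response. Hspa8 had 1216, 1196, 1206 and 1284 CPM in KO cells with Dex, against 3004, 3706, 3087 and 3504 CPM in KO controls, and 2949, 3218, 3071 and 3094 CPM in WT cells with Dex, against 3200, 3435, 3168 and 3116 CPM in WT controls. It fell in KO cells (-1.29 ± 0.06, adjusted p = 1.36e-10) and had -0.04 ± 0.06 in WT cells, and KO cells with Dex were the 1 group of 10 in which Hspa8 was not the highest member per 1000 bases of exon (at 285 CPM per 1000 bases, behind Ier3 at 476 and Junb at 327). Hsph1 fell in KO (-0.95 ± 0.15) and WT cells (-0.59 ± 0.14, adjusted p = 0.0165), the WT call being lost without WT control library 2 (0.0695) or WT Dex library 4 (0.0556). Dnaja1 fell (-0.58 ± 0.11) and Dnajb1 rose (0.77 ± 0.08) in KO cells. Hspa1a and Hspa1b together were at 0.856 to 12.9 CPM in all 16 cultures. Of 23 other heat shock genes tested, 5 rose and 14 fell in KO cells, and 0 rose and 8 fell in WT cells, among them Hspd1, which encodes the mitochondrial chaperonin HSP60 (-2.00 ± 0.15 and -0.50 ± 0.14). Myc had 136, 159, 139.5 and 154 CPM in KO cells with Dex, against 248, 335, 227 and 295 CPM in KO controls (-0.76 ± 0.09, adjusted p = 2.98e-06), and 0.10 ± 0.09 in WT cells. Klf6 fell in KO cells (-0.35 ± 0.12, adjusted p = 0.0227), a call lost without KO control library 6 or 8 or KO Dex library 5 or 7 (0.0607 to 0.0859). Klf4, too low to test, held 23 counts in KO cells with Dex and 1 in KO controls, a ratio of 28.0 in CPM (95% exact counting interval 4.55 to 1154). Cd69 had 114, 119.5, 123 and 114 CPM in KO cells with Dex, against 33.6, 31.0, 37.5 and 32.2 CPM in KO controls, and 60.7, 53.0, 53.1 and 74.2 CPM in WT cells with Dex, against 30.4, 24.5, 32.6 and 18.1 CPM in WT controls. It was the 1 member that rose in both genotypes (1.97 ± 0.15, adjusted p = 1.11e-08, in KO and 1.21 ± 0.15, adjusted p = 8.36e-05, in WT cells), and Rgs1 rose in KO cells (0.52 ± 0.09), passing in WT cells without WT control library 4 (0.0438) or with the replicate block (0.0459). Of 26 other immediate early genes 13 rose and 4 fell in KO, and 1 rose and 5 fell in WT cells, with Plk3, a stress kinase gene, lower in each (-1.95 ± 0.19 and -1.05 ± 0.17). Of 27 upstream regulators 6 rose and 6 fell in KO cells, and 2 and 3 in WT cells, the AP-1 family gene Batf being lower in each (-1.28 ± 0.08 and -0.57 ± 0.07).

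**Figure D5:**
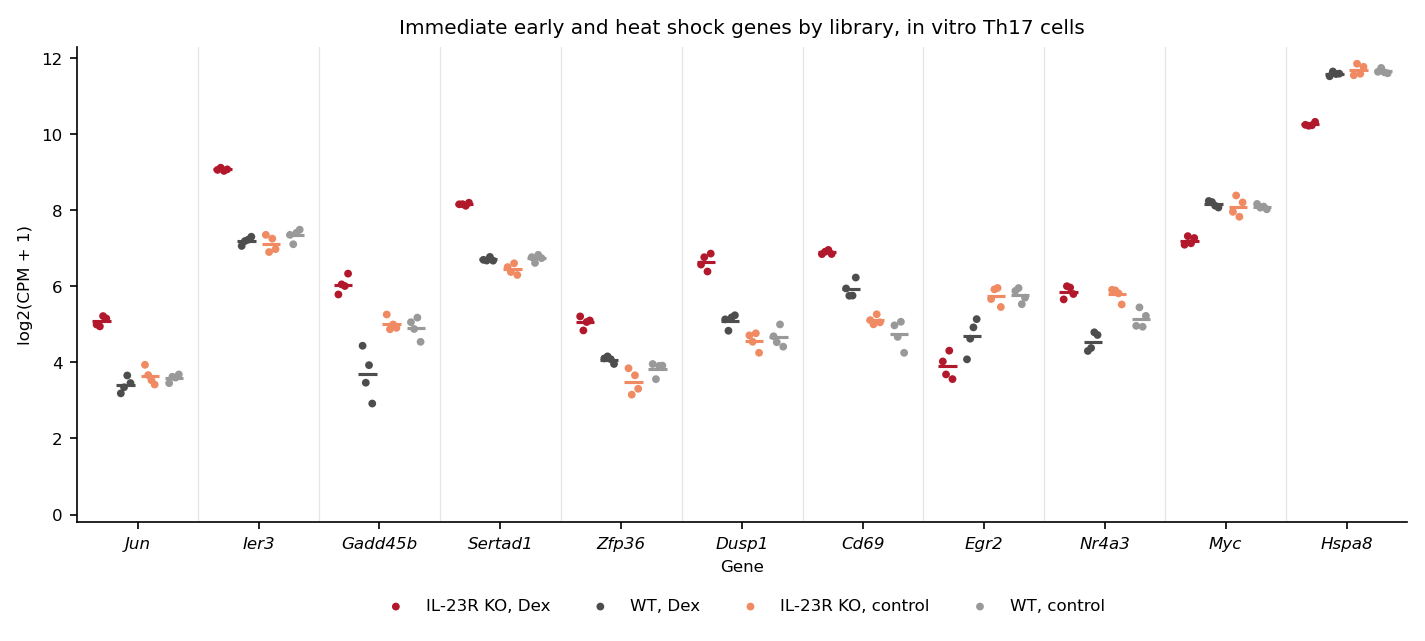
Levels of 11 members as log2(CPM + 1) in each in vitro library, with points for libraries and bars for means of the log values, in the order IL-23R KO Dex, WT Dex, IL-23R KO control, WT control. Ier3, Sertad1, Dusp1 and Zfp36 are highest in KO cells with Dex, Hspa8 and Myc are lowest there, and Cd69 is raised with Dex in both genotypes.

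The genotype by Dex term tests whether the Dex response itself differed between KO and WT cells. It was passed by 20 of 39 members. The KO response lay above the WT response for 17 of them and below it for 3, where 15.0% and 17.2% of 10813 genes passed (32.2% in all). The largest differences were those of Gadd45b (2.39 ± 0.33, adjusted p = 4.15e-05), Ier3 (2.22 ± 0.15, 3.78e-08), Ppp1r15a (1.93 ± 0.18, 1.11e-06), Sertad1 (1.88 ± 0.11, 2.55e-08), Jun (1.83 ± 0.22, 1.22e-05) and Dusp1 (1.81 ± 0.22, 1.57e-05). All 5 decay and growth arrest genes were among the 17, with Zfp36 at 1.52 ± 0.23. The 3 members below were Hspa8 (-1.24 ± 0.09, 4.94e-08), Myc (-0.86 ± 0.13, 9.84e-05) and Atf3 (-0.46 ± 0.14, 0.0177). For Nr4a3 the term passed (0.81 ± 0.21, 0.00664) while its KO response did not. No member's call was lost when any 1 of the 16 libraries was left out. Others passed without 1 library: Dusp6 without KO control library 7, KO Dex library 8 or WT Dex library 2 (0.0200 to 0.0449), Klf6 without KO control library 7 (0.0294), Egr3 without KO Dex library 5 (0.0278), Egr2 without KO Dex library 7 (0.0454) or WT Dex library 1 (0.0159), and Rgs1 without WT control library 1 (0.0449). Hspa1a, too low for the fit of all libraries, passed without WT control library 2 (0.0275). WT control libraries 1 to 4 held 45, 0, 5 and 12 Hspa1a counts, so that value rests largely on library 1. Under total-count scaling, which moved the median gene by -0.35, 11 members passed above and 10 below, and Egr1, Nr4a3, Csrnp1, Btg2, Dnajb1 and Cd69 no longer passed (adjusted p = 0.0604 to 0.321). Over all genes 4212 passed under that scaling, 18.2% of them above.

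Without Dex the genotypes differed at 2 members, where 0.684% of all genes were called. Dusp4 had 51.4, 48.7, 46.6 and 49.0 CPM in KO, against 26.4, 29.8, 26.8 and 31.9 CPM in WT control cultures, without overlap (0.73 ± 0.11, edgeR adjusted p = 0.00207). Dusp6 had 32.1, 39.2, 24.4 and 29.1 CPM in KO, against 63.9, 56.6, 56.4 and 44.3 CPM in WT control cultures (-0.86 ± 0.17, adjusted p = 0.0263), a call lost without WT control library 1, 2 or 3 or KO control library 5, 7 or 8 (0.0546 to 0.111) and under total-count scaling (0.0664). These phosphatases act on the same kinase, ERK, and went in opposite directions. DESeq2 called 122 genes, among them Dusp4, Dusp6 and also Junb (-0.28, adjusted p = 0.0152), Sertad1 (-0.33, 0.0162) and Nr4a3 (0.61, 0.0133). In edgeR Nr4a3 passed without WT control library 2 (0.0409) and Sertad1 without KO control library 7 (0.0413).

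With Dex, 20 members were higher and 5 lower in KO than in WT cells, where 22.2% and 23.7% of genes were (45.9% called). This comparison shares its KO libraries with the KO Dex response and its WT libraries with the WT one. Gadd45b had a log2 fold change of 2.44 ± 0.24 (adjusted p = 4.66e-07), Ier3 1.97 ± 0.11 (adjusted p = 8.33e-10), Jun 1.85 ± 0.15 (adjusted p = 5.77e-08) and Nr4a3 1.42 ± 0.15 (adjusted p = 1.07e-06), with 49.5, 63.2, 61.7 and 54.7 CPM of Nr4a3 in KO, against 18.7, 19.8, 26.7 and 25.4 CPM in WT cells. The lower members were Dusp6 (-1.50 ± 0.19, adjusted p = 7.65e-06), Hspa8 (-1.24 ± 0.06), Myc (-0.87 ± 0.09), Egr2 (-0.77 ± 0.23) and Atf3 (-0.26 ± 0.10, adjusted p = 0.0497). Dusp4, which fell with Dex in both genotypes, stayed higher in KO cells (0.50 ± 0.12, adjusted p = 0.00376). The call of Atf3 did not hold in DESeq2 (0.0692), nor without WT Dex library 1, 3 or 4 or KO Dex library 5, 7 or 8 (0.0612 to 0.174), nor did that of Egr1 (0.40 ± 0.15) without WT Dex library 1, 2 or 3 or KO Dex library 5, 6 or 8 (0.0534 to 0.123). In turn Hsph1 passed without KO Dex library 8 (0.0143), Dnaja1 without WT Dex library 4 (0.0349), and Rgs2 and Egr3 without KO Dex library 5 (0.0493 and 0.00291). Under total-count scaling 14 members were higher and 11 lower, with Egr1, Nr4a1, Btg2, Dusp4, Dusp5 and Dnajb1 no longer passing (0.0637 to 0.681). Over all genes 5458 were called under that scaling, 22.5% of them higher.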

How the data were processed

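The 4 deposited tables give expected counts (estimated counts, all whole numbers) by gene symbol. The submitters' processing notes name RSEM 1.3.3 and mm10. The libraries were prepared with a modified SMART-Seq2 protocol of 12 amplification cycles, per the labels, which name no molecular identifiers. The aligner, the annotation release and strandedness are not given in the sources used here. All 38 columns were used. Of 31053 symbols, 30532 were found in GENCODE M21, which gave positions and lengths.

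Counts were tested with edgeR 4.0.16 in R 4.3.3. Genes were kept by filterByExpr (minimum count 10, minimum total 15), scaled by TMM and compared by the quasi-likelihood F test, and p-values were adjusted by Benjamini-Hochberg over all genes tested, with a threshold of 0.05. Genotype comparisons within a tissue used their own table. The CHD1 tables were joined for the tissue contrast, so tissue and table cannot be told apart, and the 16 in vitro libraries had 1 fit. Levels are CPM without 17 repeat and ribosomal RNA features. The SE of a log2 fold change is its absolute value divided by the square root of the F statistic. It is not a separate estimate. Where a group held few counts, as for Jun and Fosb in the dLN, it can be smaller than counting error. Counting intervals are exact at 95%. No 2 libraries of a group agreed within sampling noise (54 pairs, lowest chi-square per degree of freedom 2.88). The fits were tested on simulated data with moderate known changes in well-counted genes. That test did not cover the large folds against few dLN counts, nor the SE.

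Members were named by role. Full values went to the called members with the largest changes, and other lists gave up to 4 called genes each. The members and lists were chosen with earlier results of these data known. Alternatives were DESeq2 1.42.0, its size factors, total-count scaling, no filter, a mean of 10 CPM, removal of repeat features, a fit of only the libraries compared, a replicate block and leaving out each library. Fits without CHD1 cKO dLN libraries 2 and 3, and of replicates 1 to 3 without a block, were chosen after seeing the data.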

Additional observations from a re-analysis of the deposited data

Results flagged for a closer look

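In 269 combinations of a member and a group of 4 libraries, 17 had 1 library set apart from the other 3. The flag (Dixon's test) compares the gap to the nearest library with the range of the group, so a small difference can be flagged. Chance alone flags about 1 in 20 such combinations. CHD1 cKO CNS library 2 held 5 of them, each the highest of its group: Fosl2 at 46.4 CPM, Egr1 at 93.1 CPM, Nr4a1 at 237 CPM, Sertad1 at 70.0 CPM and Myc at 286 CPM. That library also had the highest value for 25 of 37 members and the lowest summed T cell markers of its group (23400 CPM). Dusp10 was lowest in cKO CNS library 1 (21.8 CPM, against 23.4 to 23.6 CPM in the rest of its group), and Btg2 highest in cKO dLN library 1 (117.5 CPM). In the GR table, Jun (342 CPM) and Hspa1b (23.1 CPM) were highest in WT library 2 and Dusp2 in WT library 3 (458 CPM), while Dusp2 was highest in GR cKO library 7 (163 CPM) and Dusp10 lowest in GR cKO library 5 (13.5 CPM). In vitro, Nr4a2 was highest in IL-23R KO Dex library 6 (23.3 CPM), Egr1 lowest (22.1 CPM) and Klf6 highest (93.9 CPM) in WT Dex library 1, Ier2 lowest in WT Dex library 4 (53.1 CPM), and Zfp36 lowest in WT control library 2 (10.8 CPM).

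The response to Dex differed between IL-23R KO and WT cells, by the genotype by Dex term, for 20 members. The log2 differences, KO response minus WT response, were 1.83 for Jun, 0.91 for Junb, 0.89 for Fosl2, 0.73 for Egr1, 0.81 for Nr4a3, 2.22 for Ier3, -0.46 for Atf3, 1.93 for Ppp1r15a, 1.88 for Sertad1 and 0.87 for Csrnp1. They were 1.52 for Zfp36, 1.02 for Zfp36l1, 1.28 for Zfp36l2, 0.57 for Btg2, 2.39 for Gadd45b, 1.81 for Dusp1, -0.86 for Myc, -1.24 for Hspa8, 0.64 for Dnajb1 and 0.75 for Cd69. The 4 KO libraries with Dex, which the term includes, are those with the least mitochondrial and the most repeat counts in vitro, and the part of this in the differences was not tested.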

How the results depend on the processing

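DESeq2 called 2 members for CHD1 cKO against WT in the CNS, 5 for GR cKO against WT and 5 for IL-23R KO against WT without Dex, against 0, 0 and 2 with edgeR, and total-count scaling left 1 in the last. Over all genes DESeq2 called 178, 122 and 122 in these comparisons, edgeR 1, 0 and 74, and total-count scaling 45 in the last. In the CHD1 dLN comparison 2 members were called with replicates 1 to 3 of each group and no block, and 1 with the replicate block. Leaving out 1 library gave 0 to 0 members called for CHD1 in the CNS, 0 to 2 in the dLN, 0 to 0 for GR, 31 to 36 for CNS against dLN in cKO cells and 27 to 30 in WT cells, and 0 to 0 for the genotype by tissue term. In vitro it gave 27 to 31 for Dex in KO cells, 6 to 10 for Dex in WT cells, 20 to 22 for the genotype by Dex term, 1 to 2 for KO against WT without Dex and 23 to 25 with Dex. Over the 11 comparisons, members called were still called, in the same direction, in 1246 leave-one-out values and lost the call in 74, and members not called gained one in 25. Reversed under total-count scaling were Zfp36l2 (0.47) and Dusp10 (0.12) for CNS against dLN in cKO cells, and the median gene moved by 0.62 there. Whether libraries of the same number were paired was not settled. Same-number correlations ran from -0.08 to 0.11, and no set of pairs had all above 0.1, but 3 or 4 pairs per set cannot decide it. The replicate block gave 30 members for CNS against dLN in WT cells, without Egr3 (0.0666) and Klf4 (0.0647), 35 in cKO cells, without Dusp10 (0.0552), 30 for Dex in KO cells, 9 in WT cells, 20 for the genotype by Dex term and 0 for the genotype by tissue term. The causes were not tested. Depth limits the low members: where Fosb, Klf4, Hspa1a or Hspa1b had 3 or fewer counts over a group, a fold is a bound or a wide interval.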
